A study of Homo sapiens with 6 samples.

Results

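Cells take up glucose and break it down to pyruvate and lactate by glycolysis, and cells short of oxygen raise many of the same genes through HIF (hypoxia-inducible factor). The genes described here are 44 that belong to glycolysis or to the response to low oxygen, chosen by name from the 60835 gene names of the deposited count table. They comprise 24 glycolytic enzymes and transporters, 18 non-glycolytic hypoxia targets and the 2 HIF alpha subunits HIF1A and EPAS1. SW620 is an established human colon cancer line, here cultured in DMEM medium with high glucose and serum. The cells labelled shDNM1 (genotype label DNM1 Knockdown, 3 libraries) carried a vector for a short hairpin RNA, which lowers an mRNA by RNA interference. The cells labelled shControl (genotype label WT, 3 libraries) carried a control vector, and the series title links DNM1 to PI3K/Akt signalling. DNM1 encodes the GTPase dynamin 1, which cuts endocytic vesicles from the cell surface. No label says whether the knockdown line was a clone or a pool.

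All 3 shDNM1 libraries carry the label batch_B and all 3 shControl libraries the label batch_A, and throughout this comparison batch and vector cannot be told apart. Whether a group's libraries are separate cultures is not stated in the labels, so a p-value here reflects library-to-library spread that may be technical. Library totals ran from 12844534 to 13537519 counts. Levels are given as CPM, counts scaled to a library of 1000000 after TMM scaling, and single genes were compared with edgeR's quasi-likelihood F test, two-sided, and adjusted by the Benjamini-Hochberg method for all 16744 genes tested. A gene is said to have risen or fallen where the adjusted p was under 0.05. Of 12 colon epithelium markers, 8 averaged at least 1 CPM and CDX1 was at 0 in every library. Their summed level was 9020 to 10202 CPM in the shDNM1 libraries and 7840 to 8514 CPM in the shControl libraries. KRT8 alone made up most of this sum, and KRT20, LGALS4 and CEACAM5 averaged under 1 CPM over the 6 libraries. Of 12 markers of other cells, 4 averaged at least 1 CPM and 2 (CD3E and COL3A1) were at 0 throughout, and their sums were 30.8 to 38.5 CPM in shDNM1 and 32.3 to 36.1 CPM in shControl libraries. Single markers moved within these sums. Of the colon markers KRT8 (6939 CPM on average in shDNM1 and 5776 in shControl libraries), KRT18, CDH1 and CDX2 (2.47-fold) rose and EPCAM fell, and of the others VWF rose 1.41-fold (adjusted p = 0.049) and LYZ fell, to 1.72 CPM in shDNM1 against 3.82 CPM in shControl libraries (adjusted p = 0.00256). The part of these markers in the results below was not tested. DNM1 itself (ENSG00000106976, chromosome 9, 128191655 to 128255248, plus strand, in the GRCh38 coordinates of the deposited table, as for all genes below) had 126, 97.8 and 125 CPM in the libraries labelled shDNM1, against 127, 127 and 133 CPM in the shControl libraries. The shDNM1 values were all below the shControl values, 2 of them only just. The log2 fold change was -0.15 (SE 0.083, adjusted p = 0.189) and did not pass the test, so the groups rest on the labels, and "shDNM1 libraries" means the libraries labelled so.

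HIF is a pair of proteins, an oxygen-labile alpha subunit (HIF1A or EPAS1) and a stable beta subunit. With oxygen, prolyl hydroxylases of the EGLN family mark the alpha subunit for destruction, and without it the pair binds short DNA elements and raises its target genes. Its targets include most steps of glycolysis, the glucose and lactate carriers, angiogenic factors, carbonic anhydrases and genes of mitophagy. Colon cancer cells commonly keep a high glycolytic rate even with oxygen, and glucose uptake is also raised by Akt signalling.

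Among called genes, 9 of 10 glycolytic genes were higher in the shDNM1 libraries, while the 6 called hypoxia targets went both ways. The balance among hypoxia targets turned with single libraries and settings. The number of glycolytic rises also moved, between 6 and 11 when a library was left out, but stayed above the number of falls. The difference between these classes was not tested. All 24 glycolytic enzymes and transporters were tested. Of these, 9 rose in the libraries labelled shDNM1 (37.5%) and 1 fell (4.17%), while 14 did not pass the test. Of the 18 other hypoxia targets 17 were tested, and 2 rose (11.8%), 4 fell (23.5%) and 11 did not pass the test. Among all genes tested 31.9% were called, 15.6% as higher and 16.2% as lower in the shDNM1 libraries. The total share of called genes was thus 41.7% for glycolytic genes and 35.3% for hypoxia targets, against that background. In RNA from a whole culture, fewer cells of one kind and less RNA in each cell cannot be told apart. The median log2 fold change was 0.12 over the glycolytic genes, -0.12 over the hypoxia targets and -0.01 over all genes tested. These counts describe genes chosen with earlier results known, and no test of the lists was made.

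Past 1.5-fold, 3 glycolytic genes rose (SLC2A3, SLC16A3 and HK1) and 1 fell (PFKL), 16.7% of those tested. Of the hypoxia targets ANKRD37 rose and ANGPTL4 fell, 11.8% of those tested. Over all genes tested 11.7% were called with at least that change, 4.65% as higher and 7.08% as lower. The values of the groups did not overlap in 18 of the 43 tested members, 11 higher and 7 lower in the shDNM1 libraries. Over all genes tested 44.3% had groups without overlap, 21.2% higher and 23.1% lower. The balance among hypoxia targets, 2 rises and 4 falls, depended on single libraries and settings. It was 3 rises and 1 fall without shControl replicate 3, 2 and 2 without shDNM1 replicate 3, 3 and 3 with DESeq2, and 2 and 1 at a threshold of 0.01. In the other direction, there were 6 falls beside 3 rises without shDNM1 replicate 1. There were 5 falls beside 2 rises without shControl replicate 1. The glycolytic rises, 9 in the main fit, also depended on single libraries and settings. They numbered 6 without shControl replicate 1, 7 without shControl replicate 2 and 6 at a threshold of 0.01, with 1 fall each time. Without shDNM1 replicate 1 there were 11 rises and 1 fall. Without shDNM1 replicate 2 the count of glycolytic genes that fell was 2. On log2 of the deposited TPM (a level per transcript length, scaled to the same total in each library) plus 1, with limma, 6 glycolytic genes rose and 2 fell, beside 1801 rises and 2846 falls over all genes where the counts gave 2617 and 2720.

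**Figure D1:**
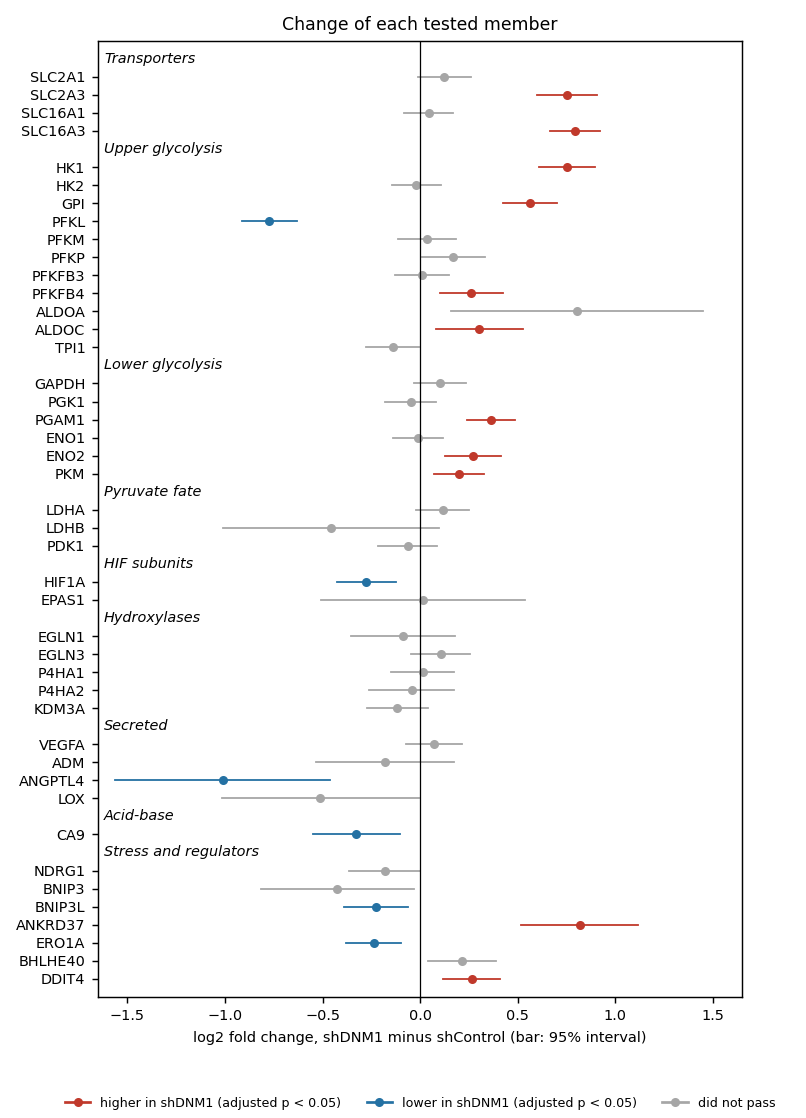
Log2 fold change of each tested member in shDNM1 over shControl libraries (x axis) with its 95% confidence interval, by class down the page, marked by whether the adjusted p was under 0.05. SLC16A3, SLC2A3, HK1 and ANKRD37 lie farthest to the right among called genes, between 0.75 and 0.82, and ANGPTL4 (-1.01) and PFKL (-0.77) farthest to the left.

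The HIF pair binds the core letters ACGTG or GCGTG, and the windows around the start sites of the members were searched for them on both strands. RefSeq (GRCh38.p14) gave windows of 300 bases, 250 before the start and 50 from it on, for 39 of the 44 genes. A window may hold either motif more than once, and CACGTG counts on both strands. One or the other motif lay in 49 of 69 member windows (71%), in 64.6% of glycolytic windows and in 88.9% of hypoxia target windows, where 48.4% of all 35116 windows of this length held one. ACGTG alone was in 43.5% of member windows and in 21.4% of all windows. Members that rose had a motif in 12 of 20 windows, members that fell in 5 of 6 and those that did not pass the test in 31 of 42. Counted by gene, since some genes have several windows, these were 9 of 10, 5 of 5 and 21 of 23 genes. Over all 27305 genes with a window the share was 52.4%. The 4 windows below belong to a rise and a fall from each class and show the motifs in capitals. They are GPI (chr19:34364742-34365041, plus strand), PFKL (chr21:44299803-44300102, plus strand), ANKRD37 (chr4:185396591-185396890, plus strand) and CA9 (chr9:35673678-35673977, plus strand).
GPI: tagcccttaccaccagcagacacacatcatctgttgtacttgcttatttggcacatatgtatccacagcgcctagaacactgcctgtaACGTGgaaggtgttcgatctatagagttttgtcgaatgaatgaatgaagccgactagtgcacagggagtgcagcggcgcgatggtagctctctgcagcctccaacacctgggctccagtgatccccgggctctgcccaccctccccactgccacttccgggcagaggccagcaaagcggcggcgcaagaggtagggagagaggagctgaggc
PFKL: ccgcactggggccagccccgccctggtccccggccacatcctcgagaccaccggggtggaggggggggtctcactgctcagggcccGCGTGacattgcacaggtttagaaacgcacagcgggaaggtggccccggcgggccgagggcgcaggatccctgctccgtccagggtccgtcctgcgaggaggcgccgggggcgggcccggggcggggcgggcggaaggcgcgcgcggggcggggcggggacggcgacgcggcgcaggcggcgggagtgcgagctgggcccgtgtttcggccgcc
ANKRD37: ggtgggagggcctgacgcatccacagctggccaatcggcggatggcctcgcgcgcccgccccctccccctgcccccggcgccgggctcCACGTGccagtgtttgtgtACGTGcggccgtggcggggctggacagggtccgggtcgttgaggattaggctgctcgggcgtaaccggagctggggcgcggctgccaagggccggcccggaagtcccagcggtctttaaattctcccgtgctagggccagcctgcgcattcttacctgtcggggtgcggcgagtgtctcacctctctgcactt
CA9: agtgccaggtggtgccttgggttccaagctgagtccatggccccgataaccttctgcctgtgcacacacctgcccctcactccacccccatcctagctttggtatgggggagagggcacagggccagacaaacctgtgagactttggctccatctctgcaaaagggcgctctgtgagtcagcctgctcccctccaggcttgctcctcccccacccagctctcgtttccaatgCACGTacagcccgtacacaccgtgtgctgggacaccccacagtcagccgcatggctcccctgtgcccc
The capitals mark the motifs. GPI, which rose, has ACGTG with its first base at -162 from the start. PFKL, which fell, has GCGTG at -164. ANKRD37, which rose, has the palindrome CACGTG at -162 and ACGTG again at -143, and CA9, which fell, has ACGTG on the minus strand at -18, printed as CACGT. A match is only a description of the letters in the window. The GPI window lies at a RefSeq start downstream of the gene start in the deposited table.

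Among the carriers of glucose and lactate, SLC2A3 and SLC16A3 rose and the other two did not pass the test. SLC2A3 (GLUT3, a high-affinity glucose transporter; ENSG00000059804, chromosome 12, 7919230 to 7936187, minus strand) had 580, 515 and 515 CPM in the shDNM1 libraries, against 297, 305 and 353 CPM in the shControl libraries. Every shDNM1 library was above every shControl library. The rise was 1.69-fold (95% interval 1.52 to 1.87; log2 0.75, SE 0.073; adjusted p = 4e-07). SLC16A3 (MCT4, which exports lactate; ENSG00000141526, chromosome 17, 82217934 to 82261129, plus strand) had 697, 753 and 742 CPM in the shDNM1 libraries, against 407, 436 and 422 CPM in the shControl libraries. These groups were also fully apart, by 1.73-fold (interval 1.59 to 1.89; log2 0.79, SE 0.060; adjusted p = 2.12e-08). SLC16A3 overlaps CSNK1D on the opposite strand. Whether reads were counted by strand is not given in the sources used here, and reads of overlapping genes cannot be told apart without it. CSNK1D had 2330, 2494 and 2451 counts in the shDNM1 libraries, against 2171, 2280 and 2170 counts in the shControl libraries, and its part in the SLC16A3 values was not tested.

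SLC2A1 (GLUT1, the main basal glucose transporter, which Akt signalling is known to bring to the membrane) had 1552, 1698 and 1671 CPM in the shDNM1 libraries, against 1388, 1571 and 1557 CPM in the shControl libraries. The groups overlapped, and the log2 fold change was 0.12 (SE 0.065, adjusted p = 0.16). Without shDNM1 replicate 1, the lowest of its group, SLC2A1 passed the test (adjusted p = 0.0228). SLC16A1 (MCT1, which carries lactate in either direction) ranged from 239 to 255 CPM in the shDNM1 libraries and from 234 to 246 CPM in the shControl libraries (log2 fold change 0.04, adjusted p = 0.627). The summed TPM of the 4 carriers, a level per length, was 2383 ± 37.0 in the shDNM1 libraries and 2008 ± 86.8 in the shControl libraries (SD, n = 3), and the groups did not overlap. SLC2A1 made up most of it, at 1418 ± 43.6 TPM in shDNM1 and 1355 ± 75.6 TPM in shControl libraries.

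Of the 11 genes of upper glycolysis, from hexokinase to aldolase, 4 rose, 1 fell and 6 did not pass the test. HK1 (ENSG00000156515, chromosome 10, 69269984 to 69401884, plus strand), one of the hexokinases that trap glucose in the cell, had 353, 387 and 364 CPM in the shDNM1 libraries, against 198, 226 and 232 CPM in the shControl libraries. Its rise was 1.68-fold (interval 1.52 to 1.86; log2 0.75, SE 0.068; adjusted p = 1.85e-07), with no overlap. HK2, the hexokinase that HIF raises in low oxygen, ranged from 213 to 229 CPM in the shDNM1 libraries and from 219 to 232 CPM in the shControl libraries (log2 fold change -0.02, interval -0.15 to 0.11, adjusted p = 0.83). The interval of HK2 thus holds no change as large as that of HK1. GPI, which turns glucose phosphate into fructose phosphate, had 551, 583 and 560 CPM in the shDNM1 libraries, against 350, 390 and 408 CPM in the shControl libraries, a rise of 1.48-fold (log2 0.56, SE 0.065, adjusted p = 3.31e-06).

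The 3 phosphofructokinase subunits, whose tetramers make the committed step of glycolysis, had 1 fall and 2 values that did not pass the test. PFKL (the liver-type subunit; ENSG00000141959, chromosome 21, 44300051 to 44327376, plus strand) had 66.7, 63.6 and 69.6 CPM in the shDNM1 libraries, against 114, 110 and 119 CPM in the shControl libraries. It was at 58.5% of its shControl level (interval of the fold 0.53 to 0.646; log2 -0.77, SE 0.068; adjusted p = 1.13e-07) and was the only 1 of the 24 glycolytic genes that fell. PFKM (the muscle type) averaged 91.0 ± 6.76 CPM in the shDNM1 libraries and 88.9 ± 2.59 CPM in the shControl libraries (SD, n = 3; log2 fold change 0.03, adjusted p = 0.757). PFKP (the platelet type) had 189, 231 and 226 CPM in the shDNM1 libraries, against 177, 200 and 197 CPM in the shControl libraries (log2 fold change 0.17, adjusted p = 0.101). PFKP passed the test without shDNM1 replicate 1 (adjusted p = 0.0016), the library in which it was lowest of the 3. Per length PFKP was the most abundant of the 3 subunits in both groups, at 193 ± 16.7 TPM in shDNM1 and 179 ± 9.82 TPM in shControl libraries. PFKL had 32.5 ± 2.30 TPM in shDNM1 and 57.8 ± 2.68 TPM in shControl libraries. PFKM shares bases with SENP1 on the opposite strand, which had 578 to 682 counts in the shDNM1 libraries and 779 to 890 counts in the shControl libraries, and the part of SENP1 reads in the PFKM values was not tested.

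PFKFB3 and PFKFB4 are bifunctional enzymes that set the level of an activator of phosphofructokinase. PFKFB4 had 147, 124 and 135 CPM in the shDNM1 libraries, against 104, 112 and 123 CPM in the shControl libraries, a rise of 1.20-fold (adjusted p = 0.0135) that missed the threshold without shControl replicate 1 (0.0875) and without shControl replicate 2 (0.0546). PFKFB3 had 114 to 115 CPM in the shDNM1 libraries and 105 to 120 CPM in the shControl libraries (log2 fold change 0.01, adjusted p = 0.941). The aldolases, which split the sugar, were both low in these counts. ALDOC had 26.0, 24.9 and 25.7 CPM in the shDNM1 libraries, against 17.9, 20.8 and 23.4 CPM in the shControl libraries, a rise of 1.23-fold (adjusted p = 0.0375). This call was lost without shControl replicate 1 (adjusted p = 0.186), shControl replicate 2 (0.086), shDNM1 replicate 2 (0.0508) or shDNM1 replicate 3 (0.0889).

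ALDOA, usually the main aldolase of growing cells, had only 55, 77 and 36 counts in the shDNM1 libraries, against 24, 28 and 47 counts in the shControl libraries. The groups overlapped, and the log2 fold change of 0.80 (SE 0.307) did not pass the test (adjusted p = 0.0543), though it did without shControl replicate 3 (0.0188) or shDNM1 replicate 3 (0.0177). In GENCODE release 29 a protein-coding gene, AC093512.2 (chromosome 16, 30053090 to 30070420), covers nearly the whole of ALDOA (30064164 to 30070457) on the same strand. It had 17 to 22 counts in the shDNM1 libraries and 21 to 28 counts in the shControl libraries. Reads of these overlapping genes cannot be told apart by position, so the ALDOA level is uncertain, and the part of the overlap was not tested. ALDOC lies within another protein-coding gene on its own strand, AC005726.1 (chromosome 17, 28455752 to 28614197), which had 0 counts in every library. The ALDOC level is therefore uncertain too, and the part of this overlap was not tested.

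**Figure D2:**
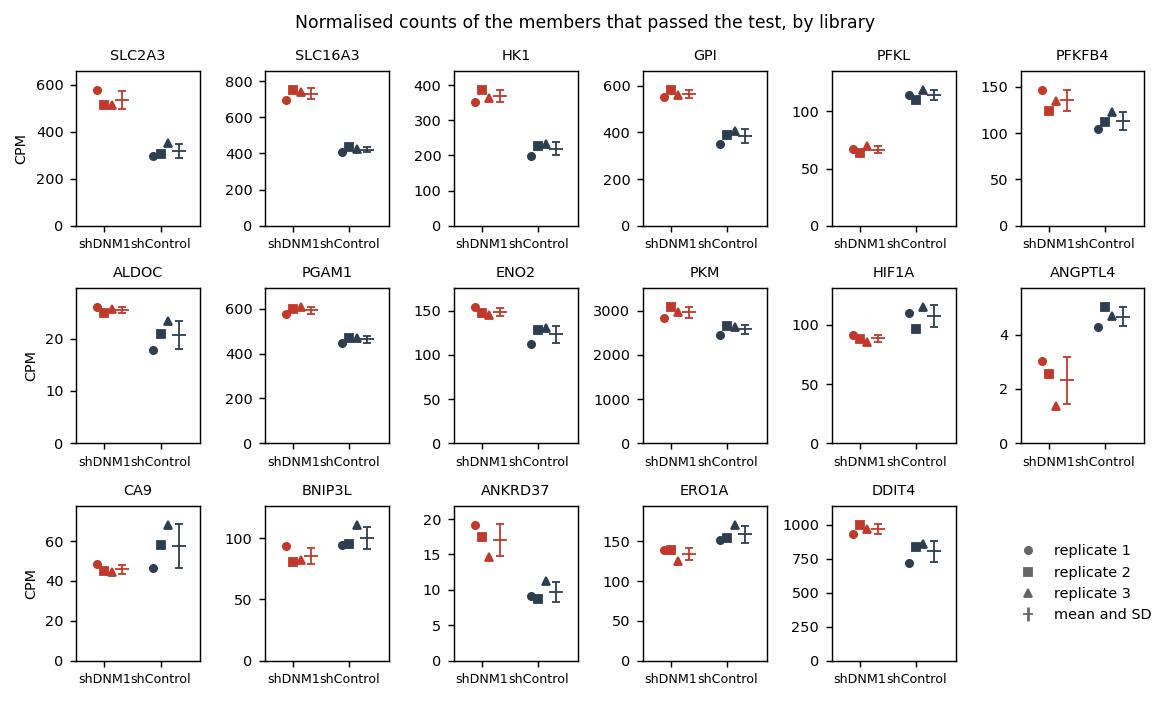
CPM per library (y axis) of the 17 members that passed the test, shDNM1 libraries to the left of shControl libraries in each panel, with a marker for each library and a bar for the mean and SD (n = 3). In SLC2A3, SLC16A3, HK1 and ANKRD37 the 3 shDNM1 points lie above all shControl points, and in PFKL and ANGPTL4 below them.

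In lower glycolysis, 3 of 6 genes rose and none fell at the threshold, and all 3 rises were under 1.5-fold. PGAM1 (phosphoglycerate mutase) had 577, 599 and 607 CPM in the shDNM1 libraries, against 447, 471 and 471 CPM in the shControl libraries, a rise of 1.28-fold (log2 0.36, SE 0.058, adjusted p = 0.000112). ENO2, the neuronal enolase, rose 1.20-fold to 148 ± 4.87 CPM in the shDNM1 libraries, against 123 ± 9.57 CPM in the shControl libraries (SD, n = 3; adjusted p = 0.00557). PKM, the pyruvate kinase that ends the pathway, had 2837, 3078 and 2967 CPM in the shDNM1 libraries, against 2458, 2651 and 2624 CPM in the shControl libraries. It rose 1.15-fold without overlap (log2 0.20, adjusted p = 0.0175), and missed the threshold without shControl replicate 1 (0.0748), shControl replicate 3 (0.0636) or shDNM1 replicate 3 (0.0611).

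GAPDH, ENO1 and PGK1, which are also abundant, and TPI1 did not pass the test. GAPDH had 2170.3, 2292 and 2223 CPM in the shDNM1 libraries, against 1931, 2198 and 2096 CPM in the shControl libraries (log2 fold change 0.10, adjusted p = 0.232). ENO1, the main enolase, had 2197, 2346 and 2239 CPM in the shDNM1 libraries, against 2145, 2349 and 2339 CPM in the shControl libraries (log2 fold change -0.01, interval -0.14 to 0.12, adjusted p = 0.915). Both genes had overlapping groups. PGK1, which makes the first ATP of the pathway, had 1491, 1468 and 1398 CPM in the shDNM1 libraries, against 1413, 1502 and 1595 CPM in the shControl libraries (log2 fold change -0.05, adjusted p = 0.589). TPI1, which interconverts the triose phosphates and is counted here among the 11 upper genes, had 895, 1009.8 and 913 CPM in the shDNM1 libraries, against 972, 1076 and 1061 CPM in the shControl libraries (log2 fold change -0.14, adjusted p = 0.109). TPI1 lay on the other side of the threshold, as a fall, without shDNM1 replicate 2 (adjusted p = 0.0209) and on the deposited TPM with limma (0.0307 with a pseudocount of 1).

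Of the 3 genes for the fate of pyruvate, none passed the test. LDHA, which reduces pyruvate to lactate, had 2050, 2001 and 1874 CPM in the shDNM1 libraries, against 1698, 1849 and 1926 CPM in the shControl libraries. The groups overlapped through shControl replicate 3, and the log2 fold change was 0.11 (SE 0.064, adjusted p = 0.191). LDHB, its partner subunit, was very low in these counts, at 2.62 ± 0.233 CPM in shDNM1 and 3.60 ± 1.08 CPM in shControl libraries (SD, n = 3; log2 fold change -0.46, adjusted p = 0.203). A protein-coding gene on the same strand, AC010197.2 (chromosome 12, 21536203 to 21657798), overlaps part of LDHB and had at most 1 count in each library. Named pseudogenes of LDHB, 3 in all, held 0% to 23.4% of the counts of gene and pseudogenes together. The LDHB level is therefore uncertain, and the part of the overlap was not tested. PDK1, a mitochondrial kinase that inhibits pyruvate dehydrogenase, had 91.0 to 102 CPM in the shDNM1 libraries and 95.3 to 108 CPM in the shControl libraries (log2 fold change -0.06, adjusted p = 0.539). PDK1 overlaps AC078883.1 on the opposite strand, which had 10.1% as many counts and whose part was not tested.

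Per length, GAPDH was the most abundant member in both groups, at 3792 ± 31.9 TPM in shDNM1 and 3675 ± 190 TPM in shControl libraries (SD, n = 3). PKM followed at 2872 ± 47.9 TPM in shDNM1 and 2604 ± 73.6 TPM in shControl libraries. ENO1 had 2596 ± 10.4 and 2723 ± 106 TPM and LDHA 2580 ± 142 and 2480 ± 138 TPM in shDNM1 and shControl libraries, and the order of PKM, ENO1 and LDHA within a group was not tested. Together the 24 glycolytic genes summed to 19189, 19012 and 19129.9 TPM in the shDNM1 libraries, against 17392, 18594 and 18791 TPM in the shControl libraries. That is 1.91% of all TPM in shDNM1 and 1.83% in shControl libraries on average, with the groups apart by less than the range within shControl. The 11 upper glycolysis genes summed to 2859 ± 49.9 TPM in shDNM1 and 2874 ± 130 TPM in shControl libraries, which overlapped.

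**Figure D3:**
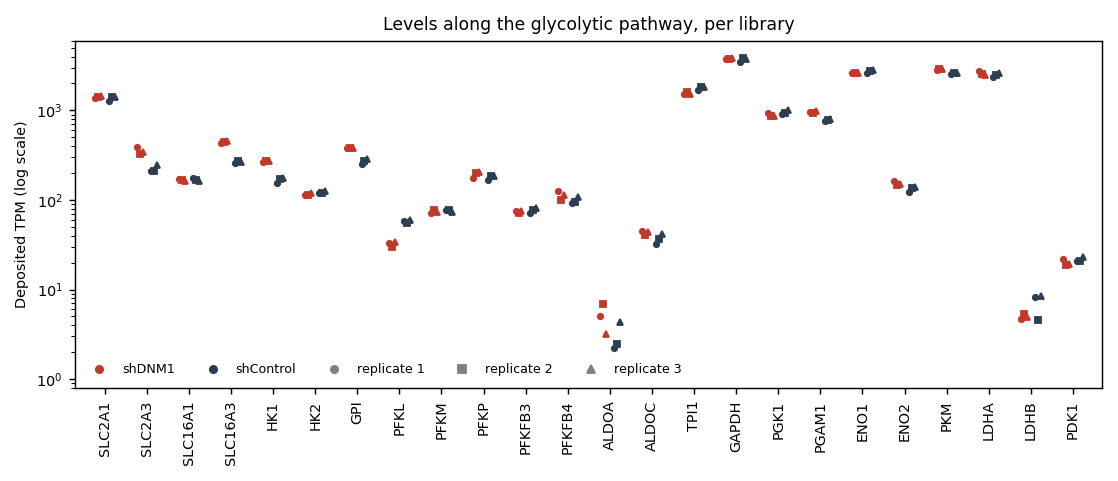
Deposited TPM (y axis, log scale) of the 24 glycolytic enzymes and transporters in the order of the pathway, with a marker for each library, shDNM1 left of shControl. GAPDH, ENO1, PKM and LDHA stand highest and ALDOA and LDHB lowest in both groups.

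Ratios between genes of the same step were compared within each library, since such a ratio does not depend on the scaling of libraries. Of 14 pairs, 9 had ratios that did not overlap between groups, 8 of them higher and 1 lower in the shDNM1 libraries. The share over all gene pairs was not computed, and 44.3% of single genes tested had groups without overlap. The direction of a ratio depends on which gene was made the numerator. PFKL is the denominator for both PFKM and PFKP, so these pairs are not independent. With 3 libraries against 3, the exact two-sided permutation test cannot give a p under 0.1, and each of these 9 had that value (0.1556 adjusted over the 14 pairs). No pair therefore passed a threshold of 0.05. On the deposited TPM the ratio of HK2 to HK1 was 0.430, 0.412 and 0.446 in the shDNM1 libraries, against 0.785, 0.707 and 0.712 in the shControl libraries. HK1 was the more abundant hexokinase in all 6 libraries, and more so in the shDNM1 libraries (log2 difference -0.77). The ratio of PFKP to PFKL averaged 5.96 ± 0.729 in the shDNM1 libraries and 3.09 ± 0.253 in the shControl libraries (SD, n = 3; log2 difference 0.94). PFKM to PFKL averaged 2.30 ± 0.264 in shDNM1 and 1.31 ± 0.0899 in shControl libraries.

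The carrier pairs also had groups that did not overlap. SLC16A3 to SLC16A1 averaged 2.67 ± 0.141 in shDNM1 and 1.59 ± 0.0833 in shControl libraries (SD, n = 3; log2 difference 0.75). SLC2A3 to SLC2A1 averaged 0.252 ± 0.030 in shDNM1 and 0.162 ± 0.0126 in shControl libraries (log2 difference 0.63), so SLC2A1 stayed the more abundant glucose transporter in each library. Smaller shifts without overlap were seen for PFKFB4 to PFKFB3 (log2 difference 0.25), ENO2 to ENO1 (0.28) and EGLN3 to EGLN1 (0.19). The pairs ALDOC to ALDOA, LDHB to LDHA, EPAS1 to HIF1A, P4HA2 to P4HA1 and BNIP3 to BNIP3L had overlapping groups, with exact permutation p-values of 0.2 to 0.6. CA9 to CA12 did not overlap, but it rests on 1 to 3 counts of CA12 in each shDNM1 library and no fold is given.

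**Figure D4:**
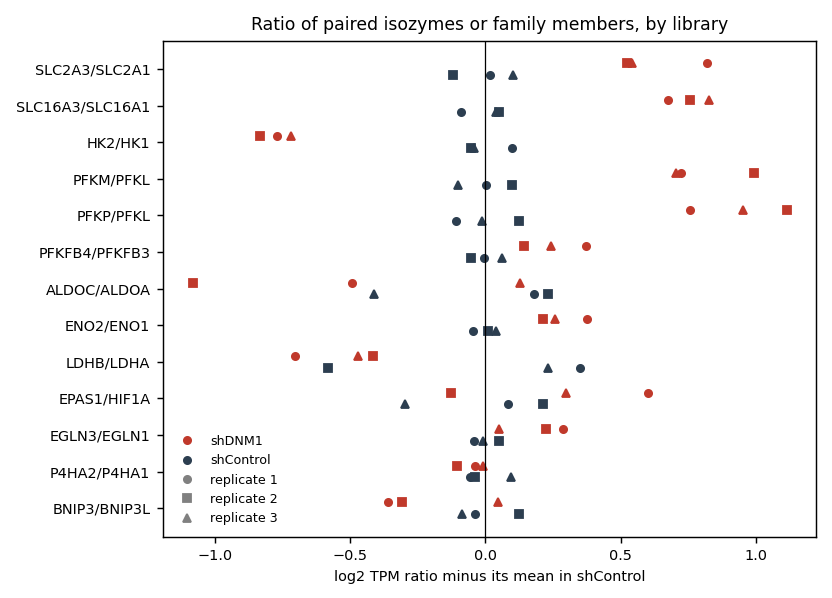
Log2 ratio of deposited TPM per library minus its mean in shControl (x axis, log2 units) for 13 pairs, CA9 to CA12 left out, with shDNM1 markers above shControl markers in each pair. The HK2 to HK1 ratio lies lower in all 3 shDNM1 libraries, and the PFKP to PFKL, PFKM to PFKL and SLC16A3 to SLC16A1 ratios lie higher.

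HIF1A, the oxygen-labile subunit of HIF, had 91.6, 88.4 and 85.7 CPM in the shDNM1 libraries, against 110, 96.8 and 115 CPM in the shControl libraries. It fell to 82.6% of its shControl level without overlap (log2 -0.28, SE 0.073, adjusted p = 0.00712), and missed the threshold without shControl replicate 3 (adjusted p = 0.0591). EPAS1, the other alpha subunit, was at 3.21 ± 0.866 CPM in shDNM1 and 3.18 ± 0.357 CPM in shControl libraries (SD, n = 3; adjusted p = 0.974). The HIF1A protein, whose amount oxygen sets, was not measured.

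None of the 5 oxygen sensors and hydroxylases passed the test, and their log2 fold changes lay between -0.12 and 0.10. They were the prolyl hydroxylases EGLN1 and EGLN3, the collagen prolyl hydroxylase subunits P4HA1 and P4HA2, and the histone demethylase KDM3A. EGLN3, which HIF itself raises, averaged 115 ± 5.58 CPM in shDNM1 and 107 ± 8.80 CPM in shControl libraries (SD, n = 3; adjusted p = 0.293). P4HA1 averaged 144 ± 9.78 CPM in shDNM1 and 143 ± 14.6 CPM in shControl libraries (log2 fold change 0.01, interval -0.15 to 0.17). EGLN3 overlaps SPTSSA on the same strand, which had 53.4% as many counts over the 6 libraries. P4HA2 overlaps PDLIM4 on the opposite strand, which had 113% as many. The part of these overlapping genes was not tested.

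Of 4 secreted factors 1 fell. ANGPTL4, a secreted inhibitor of lipoprotein lipase (ENSG00000167772, chromosome 19, 8363289 to 8374370, plus strand), had 3.03, 2.55 and 1.37 CPM in the shDNM1 libraries, against 4.29, 5.01 and 4.70 CPM in the shControl libraries. It stood at 49.6% of its shControl level (interval of the fold 0.339 to 0.726; log2 -1.01, SE 0.261; adjusted p = 0.00618), without overlap and at low counts. In GENCODE release 29 its last base is shared with the antisense gene RAB11B-AS1, which had 6, 11 and 19 counts in the shDNM1 libraries, against 14, 15 and 12 counts in the shControl libraries. VEGFA, the main angiogenic ligand and a classical HIF target, had 224 to 261 CPM in the shDNM1 libraries and 219 to 241 CPM in the shControl libraries (log2 fold change 0.07, interval -0.07 to 0.21, adjusted p = 0.463). The vasodilator peptide gene ADM (log2 fold change -0.18, adjusted p = 0.443) and the collagen cross-linking enzyme gene LOX (-0.51, adjusted p = 0.116) were low and did not pass the test. LOX overlaps SRFBP1 on the opposite strand, which had 165 to 171 counts in the shDNM1 libraries and 146 to 223 counts in the shControl libraries, and the part of these overlaps was not tested.

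The carbonic anhydrases CA9 and CA12 sit on the cell surface and keep the inside of the cell from turning acid. CA9 had 48.4, 44.8 and 44.4 CPM in the shDNM1 libraries, against 46.3, 58.2 and 68.2 CPM in the shControl libraries. It fell to 79.7% of its shControl level (log2 -0.33, SE 0.106, adjusted p = 0.0246), but shControl replicate 1 lay within the range of the shDNM1 libraries. The call was lost without shControl replicate 2 (adjusted p = 0.0674), shControl replicate 3 (0.205), shDNM1 replicate 2 (0.0555) or shDNM1 replicate 3 (0.0941). The gene overlaps ARHGEF39 on the opposite strand, which had 283, 285 and 253 counts in the shDNM1 libraries, against 371, 436 and 411 counts in the shControl libraries. The part of these reads in the CA9 values was not tested. CA12 had 1, 3 and 2 counts in the shDNM1 libraries, against 6, 11 and 14 counts in the shControl libraries, and was too low to be tested.

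The 7 genes of stress, mitophagy and regulation were divided, with 2 rises, 2 falls and 3 that did not pass the test. ANKRD37, an ankyrin repeat protein gene that HIF raises (ENSG00000186352, chromosome 4, 185396021 to 185400628, plus strand), had 19.2, 17.4 and 14.7 CPM in the shDNM1 libraries, against 9.12, 8.76 and 11.3 CPM in the shControl libraries. It rose 1.76-fold without overlap (interval 1.43 to 2.16; log2 0.82, SE 0.142; adjusted p = 0.00023). Its end overlaps UFSP2 on the opposite strand, which had 354, 343 and 329 counts in the shDNM1 libraries, against 311, 312 and 325 counts in the shControl libraries, and the part of UFSP2 reads was not tested. DDIT4 (REDD1), an inhibitor of mTORC1 raised by stress and low oxygen, had 930, 1002 and 972 CPM in the shDNM1 libraries, against 718, 838 and 861 CPM in the shControl libraries. It rose 1.20-fold without overlap (log2 0.26, SE 0.069, adjusted p = 0.0068). On log2(TPM + 1) with limma its adjusted p was 0.0508.

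ERO1A, an oxidase that helps form disulfide bonds in the endoplasmic reticulum, had 139, 139 and 126 CPM in the shDNM1 libraries, against 152, 154 and 171 CPM in the shControl libraries. It fell to 84.8% of its shControl level (adjusted p = 0.0114), and missed the threshold without shControl replicate 3 (0.0925) or shDNM1 replicate 3 (0.0772). BNIP3L, a receptor for mitophagy, had 93.4, 80.9 and 82.6 CPM in the shDNM1 libraries, against 94.7, 95.1 and 111 CPM in the shControl libraries. It fell to 85.5% of its shControl level (adjusted p = 0.0344), and missed the threshold without shControl replicate 3 (0.225) and when shDNM1 replicate 2 (0.101) or replicate 3 (0.13) was left out. Its relative BNIP3 was far lower, at 4.45 ± 0.600 CPM in shDNM1 and 5.98 ± 0.403 CPM in shControl libraries (SD, n = 3; log2 fold change -0.43, adjusted p = 0.0908). Named pseudogenes of BNIP3, 39 in all, held 39.6% to 65.5% of the counts of gene and pseudogenes together, so the BNIP3 level is uncertain. BNIP3 also overlaps AL162274.2 on the opposite strand, which had 13.2% as many counts and whose part was not tested.

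BHLHE40, a transcriptional repressor, had 216, 224 and 224 CPM in the shDNM1 libraries, against 163, 191 and 220 CPM in the shControl libraries (log2 fold change 0.21, adjusted p = 0.0588). The groups overlapped through shControl replicate 3, and the gene passed the test without that library (adjusted p = 0.00948) or without shDNM1 replicate 1 (0.0218). It passed the test under 10 of 20 other settings in all, among them DESeq2 (0.0482) and limma-voom (0.0446). NDRG1, a stress-response gene named for its regulation by N-myc, averaged 68.8 ± 7.52 CPM in shDNM1 and 78.0 ± 7.56 CPM in shControl libraries (SD, n = 3; log2 fold change -0.18, adjusted p = 0.123), and passed the test as a fall without shDNM1 replicate 1 (0.00977).

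The hypoxia targets shared a pattern among the control libraries themselves. Within shControl, replicate 3 had the highest CPM for 15 of the 17 tested hypoxia targets (88.2%) and replicate 1 the lowest for 14 (82.4%). Over all genes tested these libraries had those places in 31.5% and 34% of genes. Within shDNM1, replicate 1 was highest for 11 of 17 (64.7%), against 34.7% over all genes. The glycolytic genes had the same low library in shControl, with replicate 1 lowest for 20 of 24 (83.3%) and replicate 3 highest for 14 (58.3%). Within shDNM1 replicate 2 was highest for 13 of 24 glycolytic genes (54.2%). The places were counted after the values were seen and are given as a description. Among the called falls, HIF1A, CA9, BNIP3L and ERO1A each lost their call when shControl replicate 3 was left out, with the values given above for each gene. The median coefficient of variation of hypoxia targets was 7.57% in shDNM1 and 9.49% in shControl libraries. Over all genes it was 10.5% in shDNM1 and 7.83% in shControl libraries.

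**Figure D5:**
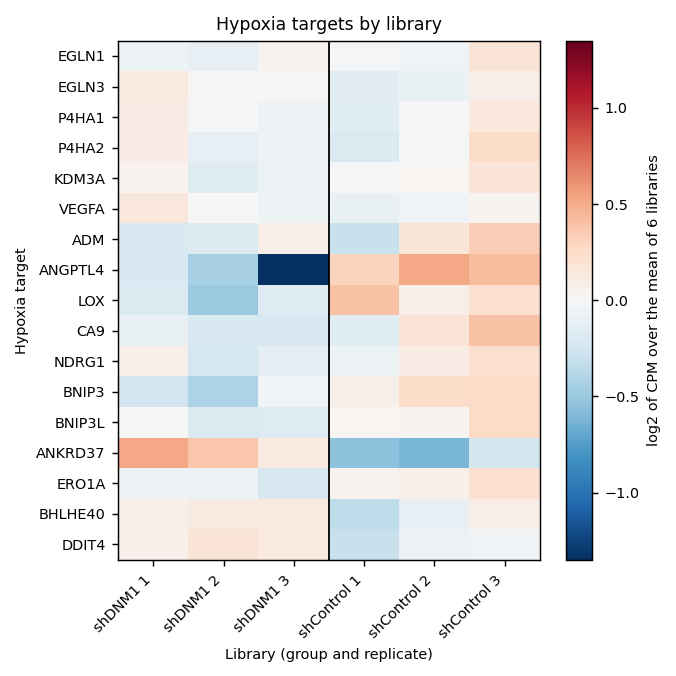
Log2 of the CPM of each of the 17 tested hypoxia targets in each library over its mean CPM in the 6 libraries, as colour, with shDNM1 columns left of shControl columns. The column of shControl replicate 3 is the highest of its group in 15 of the 17 hypoxia targets, and that of shControl replicate 1 the lowest in 14.

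The other genes of the same pathways, taken from fixed lists, were called in both directions. Of 50 further genes of glucose metabolism 42 were tested, and 8 rose (19%), 9 fell (21.4%) and 25 did not pass the test. Their median log2 fold change was -0.07. Over all genes tested 15.6% rose and 16.2% fell. The 4 with the smallest p among them were PDK3, PGD, ENO3 and PCK1. PDK3, another kinase of pyruvate dehydrogenase, had 92.2, 82.3 and 86.2 CPM in the shDNM1 libraries, against 141, 129 and 147 CPM in the shControl libraries (62.5% of shControl, adjusted p = 9.11e-07). PGD, an enzyme of the pentose phosphate pathway, fell to 62.7% of its shControl level (adjusted p = 1.91e-06). PCK1, which makes phosphoenolpyruvate in gluconeogenesis, averaged 0.468 CPM in shDNM1 and 3.57 CPM in shControl libraries (adjusted p = 9.44e-06). ENO3, the muscle enolase, was the 1 of the 4 that rose, 1.49-fold (adjusted p = 9.14e-06). Of the 3 enolase genes, ENO2 and ENO3 rose and ENO1 did not pass the test.

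Of 40 further hypoxia response genes 36 were tested, and 6 rose (16.7%), 10 fell (27.8%) and 20 did not pass the test. Their median log2 fold change was 0.04. PLIN2, which coats lipid droplets, fell to 59.5% of its shControl level (adjusted p = 9.43e-08), and PLOD2, which hydroxylates collagen lysines, fell to 52.5% (adjusted p = 1.85e-06). RIMKLA, which makes the dipeptide N-acetylaspartylglutamate, fell to 43.5% (adjusted p = 4.85e-06).

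By the pathway annotation of the deposited table, 27 tested genes of the KEGG glycolysis and gluconeogenesis pathway were not among the 44 genes. Of these 3 rose (11.1%) and 8 fell (29.6%), where 15.6% of all genes tested rose and 16.2% fell. The whole pathway, members included, had 42 tested genes, of which 8 rose and 9 fell. Of 60 tested genes of the KEGG HIF-1 signalling pathway outside the 44, 18 rose (30%) and 12 fell (20%). Of 17 such genes of the KEGG pentose phosphate pathway, 1 rose (5.88%) and 4 fell (23.5%).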

How the data were processed

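RNA of 6 SW620 libraries was sequenced, 3 labelled shDNM1 and 3 labelled shControl, and grouped by their titles. The deposited table holds raw read counts per gene on build GRCh38, per the submitters' processing notes, with nothing normalised by the authors. Not given in the sources used here are the aligner, the counter with its strand setting, and the annotation. The authors' deposited TPM values were recorded as a score, since repeated names push the column sums of the table past the total that TPM implies. Over unique names each library sums to 1000000, and these values were used. Of 62710 lines, 2328 shared 453 names with identical values and were collapsed, which left 60835 names. The number of per-sample columns not used was 0.

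Counts were fitted with edgeR 4.0.16 in R 4.3.3 (filterByExpr, TMM, quasi-likelihood F test, two-sided, Benjamini-Hochberg over 16744 genes, threshold 0.05). The common biological coefficient of variation was 0.0743. Intervals are 95% intervals of the fitted fold change and cover only the spread between these libraries. With libraries of 12844534 to 13537519 counts, genes of a few CPM rest on few counts and have the widest intervals. The test was run on simulated data for this comparison, 50 genes for each size of change among 16390. The share recovered was 32% for a change of 1.25-fold, 58% for 1.5-fold, 82% for 2-fold and 100% for 4-fold. These were 16, 29, 41 and 50 true calls, and 16 further calls were false. Far fewer genes were changed in the simulation than the 31.9% called in the real data. The adjustment for many tests was therefore stricter, and these shares do not carry over directly to the real comparison. For ratios of gene pairs an exact permutation test over libraries was used, two-sided. Alternatives were other scalings and filters, DESeq2 1.42.0, limma 3.58.1 (voom, and trend on log2 TPM), a robust fit, GC and length correction (GC known for 91.4% of tested genes), a replicate block, added pseudogene counts, a threshold of 0.01 and leaving out each library. Tables and figures used Python 3.11.15 with pandas 2.3.3, scipy 1.17.1 and matplotlib 3.10.9.

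The members, lists, pairs and tests were chosen with earlier results of these data known. Values in every library were given for members called with a log2 change of at least 0.58 or among the 10 highest mean levels, and for DNM1, DDIT4 and SLC2A1; other members shown by library were chosen after their values were seen. Of the other glucose and hypoxia lists the 4 genes with the smallest p were named, and 1 of these is not reported here. Overlapping genes came from GENCODE release 29, pseudogenes from a match of gene names in the deposited count table, and promoter windows from RefSeq.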

Additional observations from a re-analysis of the deposited data

How the results depend on the processing

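Of the 17 called members, 9 (SLC2A3, SLC16A3, HK1, GPI, PFKL, PGAM1, ENO2, ANGPTL4 and ANKRD37) kept their call under all 20 other settings, and no called member changed sign in any of them. The other 8 lost it under at least 1, as given with each gene, and the cause was not tested. On log2 TPM with limma (pseudocounts 1 and 0.1) calls were also lost for PFKFB4 (adjusted p 0.131 and 0.132), PKM (0.0955 and 0.0781), CA9 (0.0577 and 0.0583) and BNIP3L (0.0504 and 0.051), and BNIP3L had 0.062 with DESeq2. ALDOC lost its call on both TPM scales (0.0882 each), with library size alone (0.0702) and with upper quartile scaling, at an adjusted p that rounds to 0.05. Of the members not called, BHLHE40 passed the test under 10 of the 20 settings, ALDOA and TPI1 under 6 each, SLC2A1 and PFKP under 2 each and LDHA and NDRG1 under 1 each. Counts of the lists moved as follows. The falls among glycolytic genes numbered 2 in place of 1 with library size alone, on both TPM scales, with the GC trend removed and with the replicate block. On TPM hypoxia targets had 1 rise and 2 falls at a pseudocount of 1 and 2 of each at 0.1, and with DESeq2 3 of each. At a threshold of 0.01 all genes gave 1739 rises and 1764 falls, and hypoxia targets 2 rises and 1 fall. Leaving out each library gave 1903 to 2939 rises and 2034 to 2951 falls over all genes, 6 to 11 and 1 to 2 among glycolytic genes, and 2 to 3 and 1 to 6 among hypoxia targets.

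Whether the replicate numbers pair the libraries was not settled. Same-numbered libraries had deviations from their group means correlated at 0.10, 0.063 and -0.033. Differently numbered libraries had -0.098 to 0.033, and values this small cannot decide the question. With the replicate block, all genes gave 2964 rises and 3116 falls, glycolytic genes 12 and 2, and hypoxia targets 3 and 4. SLC2A1 (0.048), PFKP (0.0188), ALDOA (0.0301) and BHLHE40 (0.00508) were then called as higher and TPI1 (0.0292) as lower. Adding pseudogene counts changed no call, and BNIP3 moved most, by 0.245.

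Signs turned 37 times, in 9 uncalled members, at log2 values of at most 0.203 in size. SLC16A1 had -0.0153 and -0.0154 on TPM. HK2 had 0.0225 with the length trend removed and -0.0407 to 0.0096 with a library left out. PFKM had -0.0031 with library size alone, -0.0261 and -0.0264 on TPM and -0.0279 to 0.0754 with a library left out. PFKFB3 had -0.0073 with upper quartile scaling, -0.0268 with library size alone, -0.0469 and -0.0474 on TPM, -0.0064 with the GC trend removed and -0.0382 to 0.0387 with a library left out. ENO1 had 0.0034 with RLE and DESeq2, 0.0011 with the CPM filter, 0.0003 with the GC trend removed and -0.0454 to 0.0117 with a library left out. PDK1 had 0.0013 with the length trend removed. EPAS1 had -0.0009 with upper quartile scaling and the replicate block, -0.0192 with library size alone, -0.0133 with voom, -0.0395 and -0.0686 on TPM and -0.2025 to 0.1838 with a library left out. P4HA1 had -0.0028 with upper quartile scaling, -0.022 with library size alone, -0.0423 and -0.0425 on TPM and -0.0515 to 0.0821 with a library left out. P4HA2 had -0.1314 to 0.078 with a library left out. At these depths the levels of ALDOA, LDHB, EPAS1, LOX, BNIP3, ANGPTL4 and CA12 rest on few counts.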
